A study of Mus musculus with 8 samples.

Results

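The genes described here are 10 regulators of the two-cell program of mouse embryonic stem cells: the activators Dppa2 and Dppa4, and the repressors Trim28, Kdm1a, Chaf1a, Chaf1b, Rif1, Zmym2, Pcgf6 and Ehmt2. They were taken from the deposited count table by Ensembl identifier without its version, and all 10 were among its 47643 genes and among the 16388 genes that passed the filter on low counts. The RNA came from E14 cells, an embryonic stem cell line of the 129/Ola background, kept for weeks in 2i medium, which is N2B27 with LIF and the inhibitors CHIR99021 and PD0325901. There were 2 libraries from cells labelled Dgcr8_KO, 2 from cells labelled Drosha_KO, 2 from cells labelled Ago1_2_KO and 2 from WT cells. Deleted exons, the number of clones and the culture behind each library are not stated in the labels, so the p-values measure the spread between these libraries, which may be technical.

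In mouse embryonic stem cell cultures a small share of cells enters, for a time, a state with transcripts of the two-cell embryo. The transcription factor DUX switches on Zscan4 genes and other genes of that state, and DPPA2 with DPPA4, a pair of DNA-binding SAP-domain proteins, activates Dux. Chromatin repressors act in the other direction: histone chaperones that rebuild nucleosomes behind the replication fork, histone methyltransferases, a histone demethylase, a variant Polycomb complex and the replication-timing factor RIF1. DROSHA and DGCR8 cut primary miRNA transcripts in the nucleus, and AGO1 and AGO2 carry mature miRNAs to their target mRNAs.

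Total counts lay between 13229771 and 26333907 per library, and the raw counts of the 10 regulators lay between 578 and 36766. Drosha mRNA stood at 51.2 and 82.4 CPM (counts scaled to a common library size) in Drosha_KO cells, against 278 and 266 CPM in WT cells. Dgcr8 mRNA stood at 392 and 370 CPM in cells labelled Dgcr8_KO, against 78.1 and 70.5 CPM in WT cells. Ago1 mRNA was at 160 and 87.8 CPM in cells labelled Ago1_2_KO, against 106 and 63.3 CPM in WT cells, and Ago2 mRNA at 216 and 195 CPM, against 464 and 227 CPM. In the other mutants Ago2 stood at 522 and 396 CPM (Dgcr8_KO) and 1070 and 809 CPM (Drosha_KO). The Ago1_2_KO libraries thus had the lowest Ago2 levels of the 8, though close to that of 1 WT library. Dgcr8 mRNA was also at 304 and 234 CPM in Drosha_KO cells, and at 91.2 and 82.9 CPM in Ago1_2_KO cells. The levels of Dgcr8 and Ago1 mRNA therefore do not check the labels Dgcr8_KO and Ago1_2_KO. The position of the deletions within the genes is not known here. Summed levels of 8 embryonic stem cell markers lay between 4800 and 5773 CPM in all 8 libraries. The 7 fibroblast markers summed to 1.21 and 1.02 CPM in Dgcr8_KO, 5.22 and 4.03 CPM in Drosha_KO, 5.77 and 8.9 CPM in Ago1_2_KO, and 2.43 and 2.27 CPM in WT cells, with Lum at 0 in Drosha_KO and Ago1_2_KO and Postn at 0 in Dgcr8_KO, Drosha_KO and WT. The 4 endoderm markers summed to 1.9 and 2.1 CPM in Dgcr8_KO, 5.22 and 9.19 CPM in Drosha_KO, 4.81 and 6.29 CPM in Ago1_2_KO, and 2.26 and 3.68 CPM in WT cells, with Foxa2 at 0 in Dgcr8_KO. The 3 neural markers summed to 1.74 and 2.6 CPM in Dgcr8_KO, 6.64 and 9.85 CPM in Drosha_KO, 16.5 and 14 CPM in Ago1_2_KO, and 6.77 and 8.51 CPM in WT cells, with Neurog2 at 0 throughout. Mesoderm markers (T, Mixl1 and Eomes) summed to 59.3 and 76.1 CPM in Dgcr8_KO, 4.31 and 3.76 CPM in Drosha_KO, 4.85 and 4.19 CPM in Ago1_2_KO, and 29.8 and 43.7 CPM in WT cells. Fibroblast and endoderm sums were thus higher in all Drosha_KO and Ago1_2_KO libraries than in WT libraries. Most of them was Thy1 (means 3.94 and 5.37 CPM, 1.42 in WT) and Gata4 (5.97 and 4.60, 2.02 in WT). Col1a1 and Foxa2 means were also higher in both mutants, and those of Col1a2, Col3a1, Lum, Dcn and Sox17 were lower. The mean of Gata6 was higher in Drosha_KO only, through 1 library (0.227 and 1.36 CPM, against 0.508 and 0.532 CPM in WT). That of Postn was higher in Ago1_2_KO only, also through 1 library, with 4 and 0 counts. In Ago1_2_KO cells Pax6 was above WT and Sox1 below it. The higher mesoderm sum in Dgcr8_KO cells was T alone (mean 56.4 CPM, 22.9 in WT). Means of Eomes (11.2, 13.7 in WT) and Mixl1 (0.085, 0.23 in WT) were lower there. In Drosha_KO and Ago1_2_KO cells the means of T, Mixl1 and Eomes were all below those of WT. The part of these markers in the results was not tested. The pair of libraries was more than 2-fold apart at 580 genes in Dgcr8_KO, 2250 in Drosha_KO, 707 in Ago1_2_KO and 2427 in WT cells.

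All of the mutants are labelled as knockouts of miRNA pathway genes. The 3′ UTRs of the 10 mRNAs were therefore searched for matches to the seeds (bases 2 to 8) of 10 chosen miRNA families. Levels of these miRNAs in the cells were not measured here. The mature miRNAs with matches in the mRNAs most discussed here are given 5′ to 3′ from RefSeq (GRCm38.p6), with the seed in capitals. The first 3 share 1 seed and belong to the miR-290 cluster, the most abundant miRNA cluster of mouse embryonic stem cells.
mmu-miR-291a-3p: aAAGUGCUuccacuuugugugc
mmu-miR-294-3p: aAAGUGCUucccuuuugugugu
mmu-miR-295-3p: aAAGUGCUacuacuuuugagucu
mmu-miR-17-5p: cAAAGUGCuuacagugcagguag
mmu-miR-34a-5p: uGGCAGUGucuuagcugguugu
mmu-miR-26a-5p: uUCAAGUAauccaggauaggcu

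Few of the 10 mRNAs held such a match. Dppa4, Trim28, Kdm1a, Chaf1b, Rif1 and Pcgf6 had 0 sites of the 10 families in their longest annotated 3′ UTR, which measured 505, 173, 308, 98, 1691 and 1012 bases. Dppa2 had 1 site in 1012 bases and Ehmt2 had 1 in 231 bases, while Chaf1a had 5 in 2726 bases and Zmym2 had 7 in 2794 bases. The sites below are shown because they lie in the called genes Dppa2 and Ehmt2 or match the miR-290 seed; capitals mark the seed match, on the strand of the mRNA.
Dppa2, miR-26a site, chr16:48319592-48319614: agtgttatTACTTGAcatttccc
Ehmt2, miR-34a site, chr17:34913836-34913858: aggccgggCACTGCCcttcagac
Chaf1a, miR-290 seed, chr17:56067781-56067803: tgataaagAGCACTTtgtcctac
Chaf1a, miR-290 seed, chr17:56067915-56067937: ttaatcacAGCACTTgctgtggg
Zmym2, miR-290 seed, chr14:56961644-56961666: ccttctgaAGCACTTttactaga

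Such matches are common. The miR-290 match AGCACTT was found in 17.4% of 13350 annotated 3′ UTRs, in 26.0% of the 200 UTRs nearest in length to that of Chaf1a and in 30.5% of those nearest to that of Zmym2. The miR-34a match CACTGCC stood in 7.5% of the 200 UTRs nearest in length to that of Ehmt2, and the miR-26a match TACTTGA in 7.0% of those nearest to that of Dppa2. The miR-17 match GCACTTT overlaps the miR-290 match by 6 bases, and it was found at the first Chaf1a site and at the Zmym2 site. UTRs were read on the mRNA strand only. A match describes the letters of the UTR and is no evidence of binding.

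Of the 10 regulators, Dppa2 and Ehmt2 were called in comparisons with WT cells, and both rose in Drosha_KO and in Ago1_2_KO cells. By edgeR's quasi-likelihood F test with Benjamini-Hochberg adjustment over all genes and a call at an adjusted p under 0.05, 0 of 10 were called in Dgcr8_KO cells, where 6.93% of all genes were called, 2.45% higher and 4.48% lower. In the same comparison 6 of the 10 had an unadjusted p under 0.05, against 30% of all genes. DESeq2, fitted to every gene with a count, called 2 of the 10, Dppa2 and Rif1. It called 2335 of all genes, a number equal to 14.2% of the 16388 filtered genes. In Drosha_KO cells 2 of 10 were called, both higher, against 11.4% of all genes called, 6.54% higher and 4.83% lower. There 3 of the 10 passed an unadjusted p of 0.05, as did 29.9% of all genes. In Ago1_2_KO cells 2 of 10 were called, again both higher, against 17.6% of all genes called, 10.2% higher and 7.38% lower. There 4 of the 10 passed an unadjusted p of 0.05, as did 34.8% of all genes. By edgeR's test for any difference among the 4 genotypes 2 of 10 were called, Dppa2 (adjusted p = 0.00767) and Ehmt2 (adjusted p = 0.00361), against 24.8% of all genes, and 5 had an unadjusted p under 0.05, against 42.7%. For any difference DESeq2 called 3 of the 10, Dppa2, Trim28 and Ehmt2. It called 5358 of all genes, a number equal to 32.7% of the 16388. The 3 comparisons share the WT libraries, so their values are given side by side and not as independent repeats. The median log2 fold change of the 10 was 0.04 in Dgcr8_KO, 0.02 in Drosha_KO and -0.10 in Ago1_2_KO cells, beside -0.03, -0.02 and -0.02 for all genes.

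**Figure D1:**
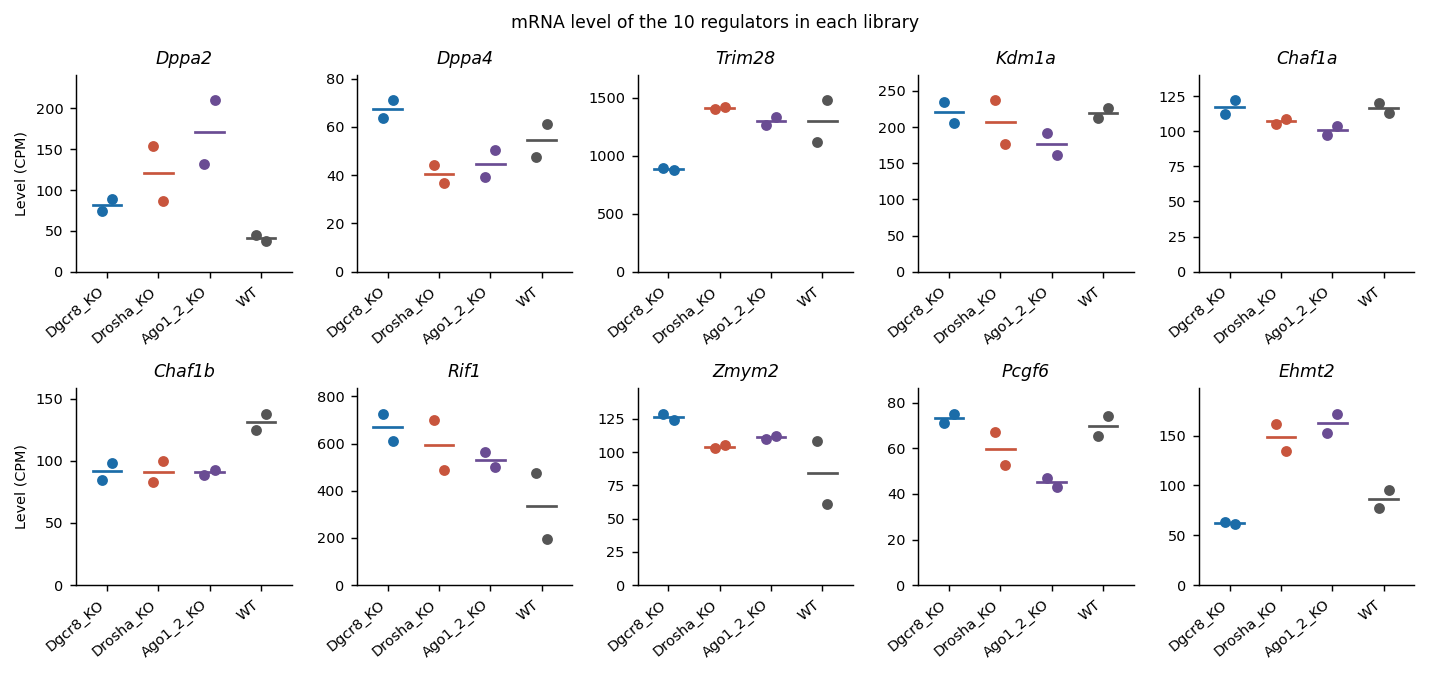
Level of each of the 10 regulators in CPM (linear axes from 0) in Dgcr8_KO, Drosha_KO, Ago1_2_KO and WT cells. Each point is 1 library and each bar the mean of 2; Dppa2 lies above both WT libraries in all 6 mutant libraries, and Rif1 and Zmym2 have WT libraries 2.45-fold and 1.76-fold apart.

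Dppa2 (ENSMUSG00000072419.4, GRCm38 chromosome 16, 48303908 to 48319723, plus strand) had the largest change of the 10 in Drosha_KO and in Ago1_2_KO cells. It stood at 74.5 and 89.2 CPM in Dgcr8_KO, 154 and 87.2 CPM in Drosha_KO, 132 and 210 CPM in Ago1_2_KO, and 45.2 and 37.5 CPM in WT cells. All 6 mutant libraries lay above both WT libraries. With each mutant taken singly, so did both libraries of 30.7% of genes in Dgcr8_KO, 25.1% in Drosha_KO and 30.5% in Ago1_2_KO cells. The share of genes for which all mutants did so at once is not given here. Dppa2 rose 4.13-fold in Ago1_2_KO cells, a log2 fold change of 2.05 ± 0.31 (SE, edgeR adjusted p = 0.00368). It rose 2.92-fold in Drosha_KO cells (log2 1.54 ± 0.31, edgeR adjusted p = 0.0152). In Dgcr8_KO cells the log2 fold change was 0.98 ± 0.31 with a 95% interval of 0.30 to 1.67, and edgeR did not call it (adjusted p = 0.0754), while DESeq2 did (adjusted p = 0.0176), as did edgeR without the filter on low counts (0.00145) and without Drosha_KO 1 (0.042) or Drosha_KO 2 (0.0439).

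The call in Ago1_2_KO cells held with each library left out in turn, at log2 fold changes of 1.68 to 2.34. The call in Drosha_KO cells was lost without Drosha_KO 1 (1.08, edgeR adjusted p = 0.0825) and without WT 2 (1.44, edgeR adjusted p = 0.0702).

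Dppa4 (ENSMUSG00000058550.14, chromosome 16, 48283733 to 48294237, plus strand), the neighbour and binding partner of Dppa2, did not follow it. It stood at 63.6 and 71.0 CPM in Dgcr8_KO, 44.0 and 36.9 CPM in Drosha_KO, 39.1 and 50.5 CPM in Ago1_2_KO, and 47.6 and 61.2 CPM in WT cells. The Dgcr8_KO libraries lay above both WT libraries, as for 30.7% of all genes. The Drosha_KO libraries lay below them, as for 26.1% of all genes, while Ago1_2_KO overlapped WT. Against WT, the log2 fold changes were 0.31 ± 0.22, -0.43 ± 0.22 and -0.28 ± 0.22 (edgeR adjusted p = 0.366, 0.218 and 0.384 in Dgcr8_KO, Drosha_KO and Ago1_2_KO cells), and none was called. The 95% interval in Ago1_2_KO cells, -0.77 to 0.21, lay wholly below that of Dppa2, 1.35 to 2.75. Because the genes are counted over different lengths, their ratio was taken per kilobase of exon. Dppa2 per kilobase was 0.796 and 0.853 times Dppa4 in Dgcr8_KO, 2.38 and 1.61 times in Drosha_KO, 2.30 and 2.82 times in Ago1_2_KO, and 0.645 and 0.416 times in WT cells. Dppa4 was thus the more abundant mRNA of the pair in Dgcr8_KO and WT libraries, and Dppa2 in the Drosha_KO and Ago1_2_KO libraries.

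Markers of two-cell-like cells moved with Dppa2. The summed level of 10 such markers (3 Zscan4 genes, Tcstv1, Tcstv3, Zfp352, Tdpoz4 and 3 Usp17l genes) was 18.4 and 20.6 CPM in Dgcr8_KO, 111 and 75.3 CPM in Drosha_KO, 350 and 781 CPM in Ago1_2_KO, and 6.10 and 3.53 CPM in WT cells. Between 8 and 10 of the 10 markers had counts in each library. Within every genotype the library with more marker RNA also had the higher Dppa2 level, in 4 of 4 genotypes, which 4.06% of all genes tested also did. The corresponding count was 3 of 4 for Dppa4 and Chaf1a, 2 of 4 for Chaf1b, Rif1, Zmym2, Pcgf6 and Ehmt2, and 1 of 4 for Trim28 and Kdm1a. In these bulk samples, more cells of a type and more RNA per cell cannot be told apart, and the part of the two-cell-like cells in the Dppa2 level was not tested.

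**Figure D2:**
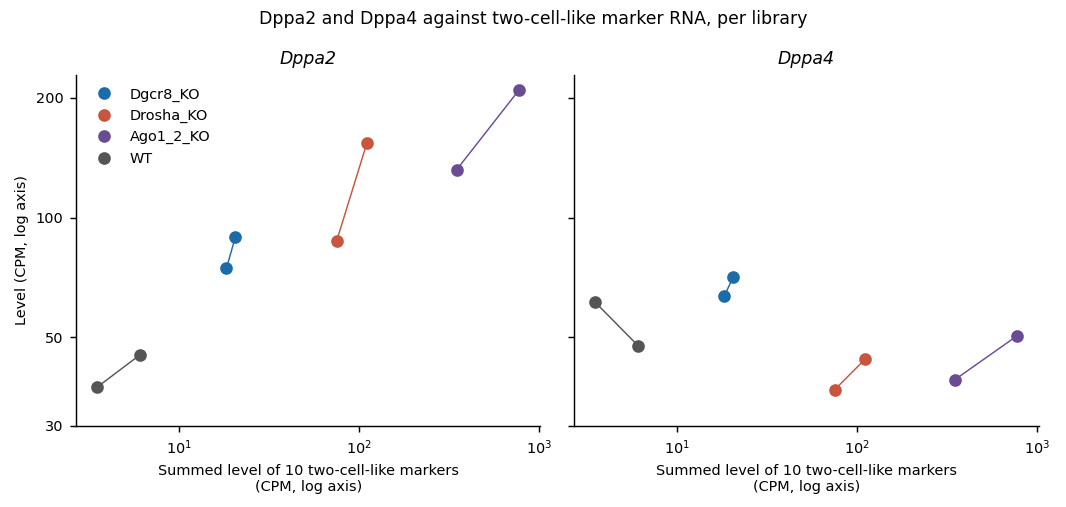
Level of Dppa2 (left) and Dppa4 (right) against the summed level of 10 two-cell-like markers, both in CPM on log axes, for each library of Dgcr8_KO, Drosha_KO, Ago1_2_KO and WT cells. Lines join the 2 libraries of a genotype; Dppa2 runs from 37.5 CPM in WT 2 to 210 CPM in Ago1_2_KO 2, the libraries with 3.53 and 781 CPM of marker RNA, while Dppa4 stays between 36.9 and 71.0 CPM.

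Dux itself, the target of DPPA2 and DPPA4, is annotated as Duxf3 in this table and lies among near-identical copies, so its counts are uncertain. It had 3 and 2 counts in Dgcr8_KO, 14 and 16 in Drosha_KO, 67 and 77 in Ago1_2_KO, and 0 and 1 in WT libraries. The level in Ago1_2_KO cells was 144 times that in WT cells, with an exact 95% binomial interval of 25.4 to 5710 that covers counting error only, and in Drosha_KO cells 26.5 times (4.41 to 1080). edgeR called Duxf3 higher in Ago1_2_KO cells (adjusted p = 0.00144) and in Drosha_KO cells (adjusted p = 0.0189; 0.0673 without Drosha_KO 1). In Dgcr8_KO cells the ratio was 5.53 with an interval of 0.619 to 262, and it was not called (edgeR adjusted p = 0.242).

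Among the repressors, Ehmt2 (ENSMUSG00000013787.15, chromosome 17, 34898469 to 34914052, plus strand) was the one called against WT. It encodes G9a, which with its partner GLP methylates histone H3 and silences genes and retroviral elements. It stood at 63.6 and 61.6 CPM in Dgcr8_KO, 162 and 134 CPM in Drosha_KO, 153 and 172 CPM in Ago1_2_KO, and 77.8 and 95.4 CPM in WT cells. The Drosha_KO and Ago1_2_KO libraries lay above both WT libraries, as for 25.1% and 30.5% of all genes. The Dgcr8_KO libraries lay below them, as for 31.2% of all genes. Ehmt2 rose 1.71-fold in Drosha_KO cells (log2 0.77 ± 0.19, edgeR adjusted p = 0.0324) and 1.87-fold in Ago1_2_KO cells (log2 0.91 ± 0.19, edgeR adjusted p = 0.0144). In Dgcr8_KO cells its log2 fold change was -0.47 ± 0.19 (edgeR adjusted p = 0.14). The Drosha_KO call was lost in a fit of those groups alone (0.80, edgeR adjusted p = 0.161), without Drosha_KO 1 (0.63, adjusted p = 0.146), and without either Dgcr8_KO or either Ago1_2_KO library (0.77, adjusted p between 0.0693 and 0.0769). The Ago1_2_KO call was lost without Ago1_2_KO 1 (0.99, edgeR adjusted p = 0.0695) or Ago1_2_KO 2 (0.82, adjusted p = 0.118), and the Dgcr8_KO difference was called without WT 1 (-0.59, adjusted p = 0.0437).

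Over all genes, log2 fold changes in Dgcr8_KO against WT cells went with the GC content of the transcript, with a Spearman rho of -0.44 over 16315 genes, against 0.0055 in Drosha_KO and -0.044 in Ago1_2_KO cells; the genes share the libraries. Of the 10 regulators, Ehmt2 and Trim28 have the most GC, at 60.8% and 59.6%, and Rif1 and Zmym2 the least, at 39.3% and 39.2%. In a fit with an offset for transcript GC, the log2 fold changes in Dgcr8_KO cells were 0.15 for Ehmt2, 0.04 for Trim28, 0.58 for Rif1, 0.15 for Zmym2 and 0.63 for Dppa2, in place of -0.47, -0.56, 0.99, 0.59 and 0.98, and edgeR called none in either fit. For Ehmt2 that changes the sign of the difference in Dgcr8_KO cells, while the values in Drosha_KO (0.75) and Ago1_2_KO cells (0.92) remained called.

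**Figure D3:**
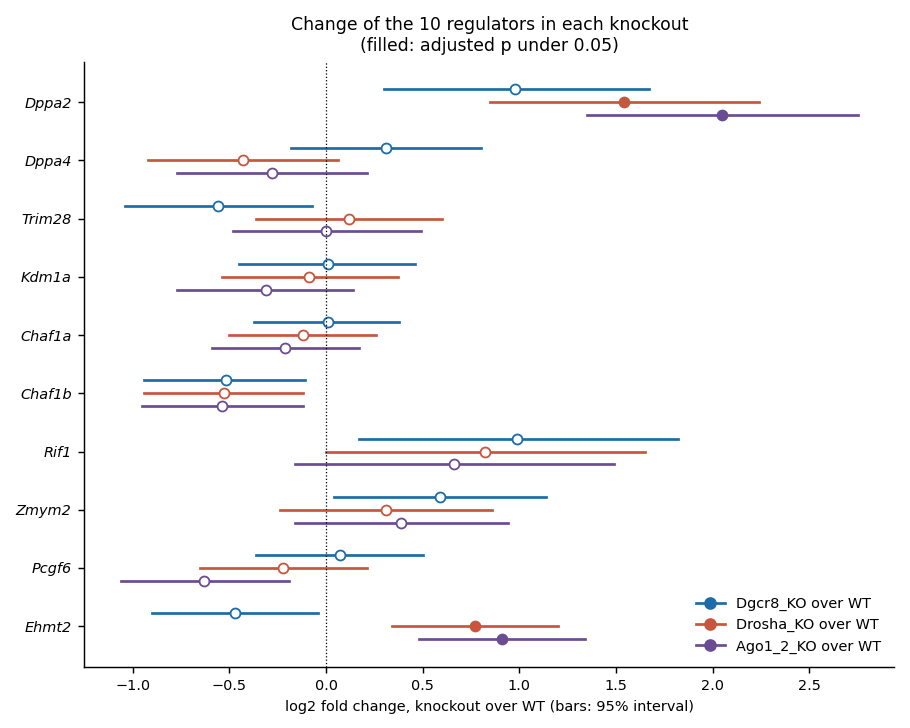
Log2 fold change over WT of the 10 regulators in Dgcr8_KO, Drosha_KO and Ago1_2_KO cells, from the edgeR fit of all 8 libraries. Points are estimates, bars are 95% intervals and filled points have an adjusted p under 0.05; these are Dppa2 and Ehmt2 in Drosha_KO and in Ago1_2_KO cells.

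Chaf1a and Chaf1b encode the large and middle subunits of CAF-1, the chaperone that deposits histones H3 and H4 on newly replicated DNA. Chaf1b (ENSMUSG00000022945.11, chromosome 16, 93883901 to 93906115, plus strand) stood at 84.9 and 98.3 CPM in Dgcr8_KO, 83.0 and 99.5 CPM in Drosha_KO, 88.6 and 92.9 CPM in Ago1_2_KO, and 125 and 138 CPM in WT cells. All 6 mutant libraries lay below both WT libraries. With each mutant taken singly, so did both libraries of 31.2% of all genes in Dgcr8_KO, 26.1% in Drosha_KO and 31.9% in Ago1_2_KO cells. The share of genes for which all mutants did so at once is not given here. The log2 fold changes were -0.52, -0.53 and -0.54, each ± 0.18, and edgeR did not call them (adjusted p = 0.101, 0.0908 and 0.0707). With the replicate number as a block all 3 were called (edgeR adjusted p = 0.0425, 0.0396 and 0.0313), and without WT 1 the one in Ago1_2_KO cells was (adjusted p = 0.0475).

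Chaf1a (ENSMUSG00000002835.8, chromosome 17, 56040439 to 56072289, plus strand) stood at 112 and 122 CPM in Dgcr8_KO, 105 and 109 CPM in Drosha_KO, 97.1 and 104 CPM in Ago1_2_KO, and 120 and 113 CPM in WT cells. The Drosha_KO and Ago1_2_KO libraries lay below both WT libraries, as did those of 26.1% and 31.9% of all genes, and the Dgcr8_KO libraries overlapped them. The log2 fold changes of Chaf1a were 0.01, -0.12 and -0.21, each ± 0.17, and the 95% intervals together spanned -0.59 to 0.38. Chaf1a shares 52.5% of its exon bases, 4648 in all, with Ubxn6 on the opposite strand, and both miR-290 seed matches shown above lie in that stretch. The sources used here do not say whether strand was used in counting, so reads of the 2 genes may have been mixed. Ubxn6 had log2 fold changes of -0.44, -0.32 and 0.07 in Dgcr8_KO, Drosha_KO and Ago1_2_KO cells and was not called by edgeR (adjusted p = 0.298, 0.446 and 0.886).

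Trim28 (ENSMUSG00000005566.13, chromosome 7, 12999114 to 13031035, plus strand) encodes the co-repressor that KRAB zinc-finger proteins bring to retroviral elements, where it recruits the histone methyltransferase SETDB1. It stood at 897 and 874 CPM in Dgcr8_KO, 1406 and 1425 CPM in Drosha_KO, 1268 and 1338 CPM in Ago1_2_KO, and 1123 and 1480 CPM in WT cells. The Dgcr8_KO libraries were the lowest of the 8, while the other mutant libraries lay within the WT range. Both Dgcr8_KO libraries lay below both WT libraries for 31.2% of all genes. The log2 fold changes were -0.56 ± 0.22, 0.12 ± 0.22 and 0.00 ± 0.22 in Dgcr8_KO, Drosha_KO and Ago1_2_KO cells. In the fit of all 8 libraries edgeR called none (adjusted p = 0.125, 0.738 and 0.997). Counts of calls with libraries left out are given in the last section. Without WT 1 the difference in Dgcr8_KO cells was -0.73, and with each library left out in turn it ran from -0.73 to -0.34.

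Kdm1a (ENSMUSG00000036940.15, chromosome 4, 136550540 to 136602723, minus strand) encodes LSD1, a histone demethylase that works in the CoREST complex. It stood at 235 and 206 CPM in Dgcr8_KO, 237 and 177 CPM in Drosha_KO, 192 and 162 CPM in Ago1_2_KO, and 213 and 227 CPM in WT cells. The ranges overlapped except that both Ago1_2_KO libraries lay below both WT libraries, as for 31.9% of all genes. The log2 fold changes were 0.01, -0.09 and -0.31, each ± 0.20, with 95% intervals of -0.45 to 0.46, -0.54 to 0.37 and -0.77 to 0.14 (edgeR adjusted p = 0.99, 0.801 and 0.301).

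Zmym2 (ENSMUSG00000021945.8, chromosome 14, 56886653 to 56962701, plus strand) encodes a zinc-finger protein that binds SUMO and the LSD1 and CoREST complex. It stood at 129 and 124 CPM in Dgcr8_KO, 103 and 105 CPM in Drosha_KO, 110 and 112 CPM in Ago1_2_KO, and 108 and 61.1 CPM in WT cells. The mutant libraries of each genotype were within 1.04-fold of each other, while those of WT were 1.76-fold apart. The Dgcr8_KO and Ago1_2_KO libraries lay above both WT libraries, as for 30.7% and 30.5% of all genes, and Drosha_KO overlapped them. The log2 fold changes were 0.59, 0.31 and 0.39, each ± 0.25, and in the fit of all 8 libraries edgeR called none (adjusted p = 0.147, 0.43 and 0.285). Without WT 1, the fit against WT 2 alone gave 1.07, 0.79 and 0.89. With each library left out in turn, the values ran from 0.24 to 1.07, from -0.02 to 0.79 and from 0.06 to 0.89.

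Rif1 (ENSMUSG00000036202.15, chromosome 2, 52072832 to 52122383, plus strand), which sets replication timing and binds repressive chromatin, had the same dependence on WT. It stood at 727 and 609 CPM in Dgcr8_KO, 699 and 487 CPM in Drosha_KO, 563 and 500 CPM in Ago1_2_KO, and 476 and 195 CPM in WT cells. All 6 mutant libraries lay above WT 1, and WT 2 was 2.45-fold below WT 1. With each mutant taken singly, both libraries of 30.7%, 25.1% and 30.5% of all genes lay above both WT libraries in Dgcr8_KO, Drosha_KO and Ago1_2_KO cells. The log2 fold changes were 0.99, 0.82 and 0.66, each ± 0.37, and in the fit of all 8 libraries edgeR called none (adjusted p = 0.113, 0.169 and 0.228). DESeq2 called the one in Dgcr8_KO cells (adjusted p = 0.032), as did edgeR with the replicate block (adjusted p = 0.0333), and edgeR without a filter on low counts called all 3 (adjusted p = 0.000583, 0.00492 and 0.0299). Without WT 1 the values were 1.80, 1.63 and 1.48. With each library left out in turn, they ran from 0.49 to 1.80, from 0.34 to 1.63 and from 0.18 to 1.48.

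Pcgf6 (ENSMUSG00000025050.7, chromosome 19, 47033617 to 47050906, minus strand) encodes the subunit that defines PRC1.6, a variant Polycomb complex that silences germline genes in embryonic stem cells. It stood at 71.1 and 75.3 CPM in Dgcr8_KO, 67.0 and 52.9 CPM in Drosha_KO, 46.9 and 43.2 CPM in Ago1_2_KO, and 65.4 and 74.1 CPM in WT cells. The Ago1_2_KO libraries were the lowest of the 8, and the other mutants overlapped WT. Both Ago1_2_KO libraries lay below both WT libraries for 31.9% of all genes. The log2 fold changes were 0.07, -0.22 and -0.63, each ± 0.19, and the last just missed a call (edgeR adjusted p = 0.0515). It was called with the replicate block (-0.63, edgeR adjusted p = 0.0355), with the GC offset (-0.70, adjusted p = 0.0305), without either Drosha_KO library (adjusted p = 0.0372 and 0.0399) and without WT 1 (adjusted p = 0.0333).

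Per kilobase of exon, Trim28 was the most abundant of the 10 in every genotype, at 213 ± 3.94, 340 ± 3.19, 313 ± 12.0 and 313 ± 60.8 CPM per kb in Dgcr8_KO, Drosha_KO, Ago1_2_KO and WT cells (mean ± SD, n = 2 each). In WT cells the order below it was Kdm1a (42.5 ± 1.96), Dppa4 (32.8 ± 5.79), Rif1 (31.9 ± 19.0), Chaf1b (28.1 ± 1.90), Dppa2 (16.9 ± 2.22), Ehmt2 (15.8 ± 2.27), Pcgf6 (13.9 ± 1.22), Chaf1a (13.2 ± 0.570) and Zmym2 (10.7 ± 4.18 CPM per kb). From Dppa4 to Chaf1b and from Dppa2 to Zmym2 each neighbour in that order lay within the SD of the next or of itself. In Ago1_2_KO cells Dppa2 stood second, at 69.9 ± 22.4 CPM per kb, followed by Rif1 (50.6 ± 4.27), Kdm1a (34.2 ± 4.03), Ehmt2 (29.6 ± 2.36) and Dppa4 (27.0 ± 4.85).

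The mutants were also compared with each other. Against Dgcr8_KO cells, 3 of 10 regulators were called in Ago1_2_KO cells, 2 higher and 1 lower, where 17.1% of all genes were called, 11.6% higher and 5.54% lower. An unadjusted p under 0.05 was found for 5 of the 10 there, against 32.9% of all genes. Both Ago1_2_KO libraries lay above both Dgcr8_KO libraries for 3 of the 10, against 36.2% of all genes, and below them for 6, against 38.1%. In Drosha_KO cells 2 of 10 were called against Dgcr8_KO, 1 in each direction, where 15.4% of all genes were called, 9.67% higher and 5.74% lower. There 3 of the 10 passed an unadjusted p of 0.05, against 32.2% of all genes. Both Drosha_KO libraries lay above both Dgcr8_KO libraries for 2 of the 10, against 32.4% of all genes, and below them for 4, against 32.2%. Between Ago1_2_KO and Drosha_KO cells 0 of 10 were called, where edgeR called 0.732% of all genes, 0.409% higher and 0.323% lower. An unadjusted p under 0.05 was found for 0 of the 10 there, against 9.78% of all genes. DESeq2 called 0 of the 10 and 362 of all genes, a number equal to 2.21% of the 16388 filtered genes. Both Ago1_2_KO libraries lay above both Drosha_KO libraries for 1 of the 10, against 20.5% of all genes, and below them for 3, against 19.1%. These comparisons share libraries with each other and with those against WT.

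Ehmt2 rose in both comparisons with Dgcr8_KO cells, by a log2 fold change of 1.37 ± 0.19 in Ago1_2_KO cells (edgeR adjusted p = 0.00234) and of 1.24 ± 0.19 in Drosha_KO cells (edgeR adjusted p = 0.00439). With the GC offset these were 0.77 (edgeR adjusted p = 0.0227) and 0.60 (adjusted p = 0.0632), and the comparison in Drosha_KO cells was also not called without Dgcr8_KO 1 (1.26, adjusted p = 0.0646) or Dgcr8_KO 2 (1.22, adjusted p = 0.065). Dppa2 rose in Ago1_2_KO against Dgcr8_KO cells (1.06 ± 0.30, edgeR adjusted p = 0.0404), a call lost without Dgcr8_KO 1 (0.94, adjusted p = 0.237), Dgcr8_KO 2 (1.20, adjusted p = 0.144) or Ago1_2_KO 2 (0.70, adjusted p = 0.31). Its difference between Drosha_KO and Dgcr8_KO cells, 0.56 ± 0.30, had an interval of -0.12 to 1.24, and that between Ago1_2_KO and Drosha_KO cells, 0.50 ± 0.30, one of -0.17 to 1.18 (edgeR adjusted p = 0.233 and 0.691).

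Pcgf6 fell in Ago1_2_KO against Dgcr8_KO cells by 0.70 ± 0.19 on the log2 scale (edgeR adjusted p = 0.0367), a call lost with the GC offset (-0.44, adjusted p = 0.157) and without any 1 of those 4 libraries (-0.76 to -0.64, adjusted p between 0.156 and 0.256). Dppa4 fell in Drosha_KO against Dgcr8_KO cells by 0.74 ± 0.22 with an adjusted p of 0.04996 in edgeR, at the edge of the threshold. That call was lost with DESeq2 size factors (-0.73, edgeR adjusted p = 0.0511), with the GC offset (-0.62, adjusted p = 0.0951) and without any 1 of the 6 mutant libraries (-0.86 to -0.61). Trim28 was not called in Drosha_KO against Dgcr8_KO cells by edgeR (0.68 ± 0.22, adjusted p = 0.0629) but was by DESeq2 (0.69, adjusted p = 0.0145), and the GC offset gave 0.07. In Ago1_2_KO against Dgcr8_KO cells edgeR did not call Trim28 either (0.56, adjusted p = 0.105), DESeq2 did at 0.58 (adjusted p = 0.0497), and the GC offset gave 0.01.

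Around the 10 regulators, 64 other genes of the same complexes or of the same reported function were counted, all of which were tested. In Dgcr8_KO cells 1 was called higher and 0 lower, in Drosha_KO cells 3 higher and 1 lower, and in Ago1_2_KO cells 7 higher and 1 lower, each against WT and beside the shares of all genes given above. An unadjusted p under 0.05 was found for 13, 15 and 14 of the 64, beside 30%, 29.9% and 34.8% of all genes. DESeq2, fitted to every gene with a count, called 6, 9 and 9 of the 64 and 2335, 2661 and 3497 of all genes. Those totals equal 14.2%, 16.2% and 21.3% of the 16388 genes that passed the edgeR filter. DESeq2 was fitted to more genes than that, so the shares of its own fit are lower.

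**Figure D4:**
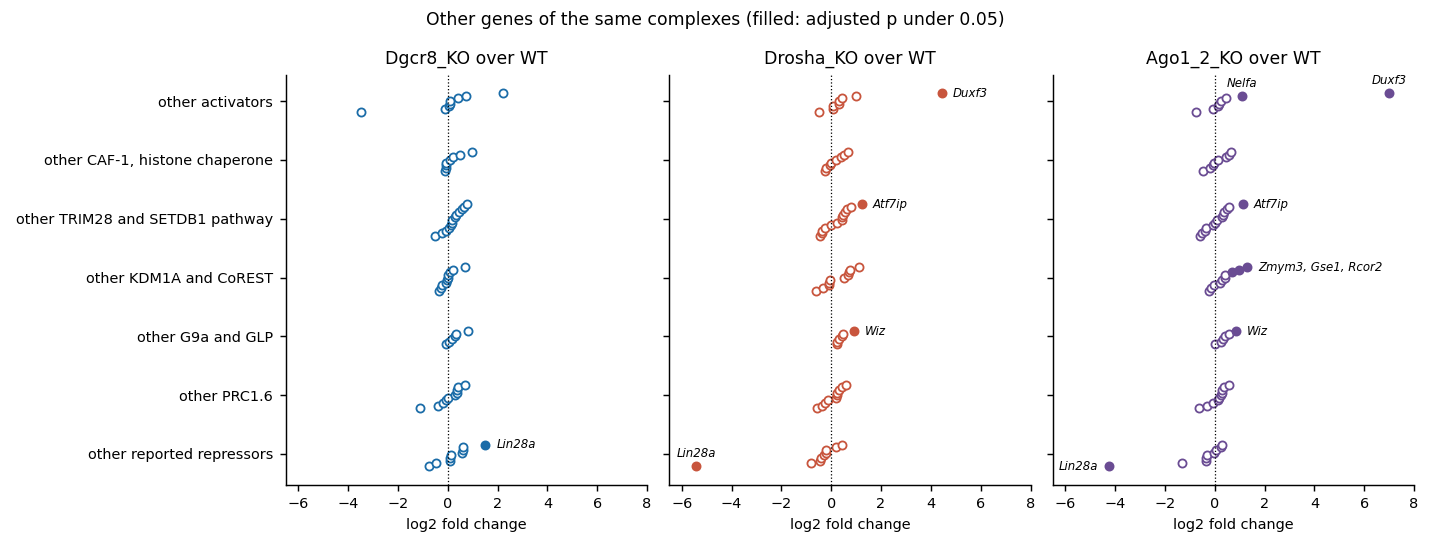
Log2 fold change over WT of 64 other genes in 7 groups, in Dgcr8_KO, Drosha_KO and Ago1_2_KO cells (edgeR fit of all 8 libraries). Each point is 1 gene, filled where the adjusted p is under 0.05 and then named; most points lie near 0, with Lin28a at 1.51, -5.41 and -4.24, and the fitted value of Duxf3, which had 1 count in WT, is uncertain.

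Among 8 other activators of the two-cell program, Duxf3 was called in Drosha_KO cells, and Duxf3 and Nelfa in Ago1_2_KO cells, all higher, beside 6.54% and 10.2% of all genes called higher. Nelfa, a subunit of the negative elongation factor that has been reported to promote the two-cell-like state in mouse cells, stood at 88.0 and 154 CPM in Ago1_2_KO cells, against 60.3 and 53.4 CPM in WT cells (log2 1.09 ± 0.26, edgeR adjusted p = 0.0231). That call was lost without Ago1_2_KO 2 (0.63, edgeR adjusted p = 0.206), without WT 2 (1.02, adjusted p = 0.0825) and with those groups alone (1.12, adjusted p = 0.0523). The median log2 fold changes of the 8 were 0.09, 0.31 and 0.20 in Dgcr8_KO, Drosha_KO and Ago1_2_KO cells.

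Of 13 other genes of the TRIM28 and SETDB1 pathway, 1 was called, Atf7ip, which was higher in Drosha_KO and in Ago1_2_KO cells, where 6.54% and 10.2% of all genes were called higher. ATF7IP binds SETDB1 and keeps it stable in the nucleus. It stood at 185 and 171 CPM in Drosha_KO and 167 and 168 CPM in Ago1_2_KO, against 98.6 and 53.4 CPM in WT cells, and rose by log2 fold changes of 1.23 ± 0.27 and 1.14 ± 0.27 (edgeR adjusted p = 0.0203 and 0.0202). With only the groups compared in the fit neither was called (edgeR adjusted p = 0.062 and 0.0527), nor was the first without Drosha_KO 1 (0.0837) or the second without Ago1_2_KO 1 (0.0994) or Ago1_2_KO 2 (0.106). The medians of the 13 were 0.18, 0.43 and 0.07.

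Of 10 other genes of the KDM1A and CoREST complex, 3 were called in Ago1_2_KO cells, all higher, where 10.2% of all genes were called higher. In Drosha_KO and Dgcr8_KO cells 0 of the 10 were called, beside 11.4% and 6.93% of all genes. Rcor2, a CoREST scaffold, stood at 117 and 139 CPM in Ago1_2_KO, against 40.4 and 63.0 CPM in WT cells (log2 1.30 ± 0.34, edgeR adjusted p = 0.0285). Gse1 stood at 60.6 and 80.4 CPM, against 33.4 and 38.0 CPM in WT cells (0.98 ± 0.23, edgeR adjusted p = 0.0202), and Zmym3, a relative of Zmym2, at 96.9 and 96.5 CPM, against 69.4 and 49.2 CPM (0.71 ± 0.21, edgeR adjusted p = 0.0428). None of the 3 was called without either Ago1_2_KO library (edgeR adjusted p between 0.0537 and 0.193); Rcor2 was also not called without WT 1 (0.0764), and Zmym3 without WT 2 (0.0966), without either Dgcr8_KO library (0.0858 and 0.0866) or with those groups alone (0.0955). In Drosha_KO cells both libraries of Rcor2, Gse1 and Zmym3 lay above both WT libraries, as did those of 25.1% of all genes. The log2 fold changes were 1.10, 0.76 and 0.70 (edgeR adjusted p = 0.0617, 0.059 and 0.0557). These 3 genes were named for their calls in Ago1_2_KO cells against the same WT libraries, so this is no separate support. The differences between Ago1_2_KO and Drosha_KO cells were 0.21, 0.22 and 0.01, and edgeR called none (adjusted p = 0.958, 0.886 and 0.998). The median of the 10 was -0.01, 0.23 and 0.37 in Dgcr8_KO, Drosha_KO and Ago1_2_KO cells.

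Of 6 other genes of the G9a and GLP complex, 1 was called, Wiz, which rose in Drosha_KO and in Ago1_2_KO cells, where 6.54% and 10.2% of all genes were called higher. WIZ is a zinc-finger partner of G9a and GLP. It stood at 50.1 and 56.2 CPM in Dgcr8_KO, 81.7 and 78.8 CPM in Drosha_KO and 65.2 and 88.4 CPM in Ago1_2_KO, against 46.2 and 38.5 CPM in WT cells. The mutant libraries all lay above both WT libraries. With each mutant taken singly, so did both libraries of 30.7%, 25.1% and 30.5% of all genes in Dgcr8_KO, Drosha_KO and Ago1_2_KO cells. Against WT the log2 fold changes of Wiz were 0.33 ± 0.21, 0.92 ± 0.21 and 0.86 ± 0.21 (edgeR adjusted p = 0.312, 0.0242 and 0.0241) in Dgcr8_KO, Drosha_KO and Ago1_2_KO cells. Against Dgcr8_KO cells, Wiz was called neither in Drosha_KO (0.59, edgeR adjusted p = 0.0836) nor in Ago1_2_KO cells (0.53, adjusted p = 0.111). Both calls against WT were lost with only the groups compared (edgeR adjusted p = 0.107 and 0.0601) and without either Dgcr8_KO library or WT 2 (0.0537 to 0.0683), the first also without Drosha_KO 1 (0.088) and the second without Ago1_2_KO 1 (0.0543) or Ago1_2_KO 2 (0.206). Of 8 other CAF-1 and histone chaperone genes and of 10 other PRC1.6 genes 0 were called against WT in any mutant by edgeR. Of all genes, 6.93%, 11.4% and 17.6% were called in Dgcr8_KO, Drosha_KO and Ago1_2_KO cells. The medians of these 8 and 10 genes lay between 0.02 and 0.20.

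Of 9 other reported repressors, Lin28a was the 1 called against WT, and it was called in all 3 mutants. Of all genes, 6.93%, 11.4% and 17.6% were called in Dgcr8_KO, Drosha_KO and Ago1_2_KO cells. LIN28A is an RNA-binding protein that blocks let-7 maturation and has been reported to restrain the two-cell program from the nucleolus. It stood at 64.5 and 66.0 CPM in Dgcr8_KO, 0.965 and 0.194 CPM in Drosha_KO, 1.47 and 0.823 CPM in Ago1_2_KO, and 19.5 and 26.1 CPM in WT cells. Lin28a rose in Dgcr8_KO cells (log2 1.51 ± 0.39, edgeR adjusted p = 0.0481) and fell in Drosha_KO (-5.41 ± 0.52, edgeR adjusted p = 0.000992) and Ago1_2_KO cells (-4.24 ± 0.47, edgeR adjusted p = 0.00106). The rise in Dgcr8_KO cells was not called with the GC offset (edgeR adjusted p = 0.0576) or without any 1 of the Dgcr8_KO, Ago1_2_KO or WT libraries (0.066 to 0.278).

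For each regulator, the genes most like it were sought by the Pearson correlation of log2 CPM over the 8 libraries among 11026 genes; the libraries fall into 4 genotypes and are few, so r is a description. Dppa2 was most like Pmepa1 (r = 0.982) and Sox13 (0.981), and Dppa4 like Arl2bp (0.961) and Stra6l (0.955). Trim28 was most like Crlf2 (0.993) and Psmg4 (0.992), Kdm1a like Arpp19 (0.962) and Arf4 (0.948), Chaf1a like Mtss1l (0.990) and Nolc1 (0.956), and Chaf1b like Borcs8 (0.993). Rif1 was most like Ralgapa1 (0.999) and Atm (0.995), Zmym2 like Secisbp2l (0.986) and Phf8 (0.983), Pcgf6 like Ccnb1ip1 (0.986) and Trim11 (0.975), and Ehmt2 like Anxa11 (0.996) and Sbf1 (0.994). Pmepa1 stood at 26.0 and 24.0 CPM in Dgcr8_KO, 36.3 and 26.0 CPM in Drosha_KO, 34.7 and 42.4 CPM in Ago1_2_KO, and 18.5 and 18.2 CPM in WT cells. Anxa11 stood, like Ehmt2, lowest in Dgcr8_KO cells, at 43.3 and 44.0 CPM, with 78.5 and 72.3 CPM in Drosha_KO, 78.2 and 82.1 CPM in Ago1_2_KO, and 52.7 and 59.4 CPM in WT cells.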

How the data were processed

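Polyadenylated RNA of 8 libraries was sequenced, and the authors deposited whole-number counts per gene. Per the labels, libraries were made with the Illumina TruSeq kit and are reverse-stranded. STAR 2.4.2a and the build mm10 (GRCm38) are named in the submitters' processing notes, while the sources used here name no counting tool, strand setting or annotation release. Of its count columns, 0 were not used. Identifiers were matched without version to GENCODE M21 (GRCm38), where 47224 of 47643 genes had a symbol.

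Genes were filtered with filterByExpr by genotype (16388 kept) and scaled by TMM. The 8 libraries were fitted together, with a mean for each genotype, in edgeR 4.0.16 under R 4.3.3, and tested by the robust quasi-likelihood F test. The p-values were adjusted by Benjamini-Hochberg over all genes and called under 0.05. Standard errors come from the same test. CPM used TMM-scaled library sizes. The steps were tested on simulated data.

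The 10 regulators, the 7 lists of other genes and the miRNA families were chosen with earlier results of these data known. Named genes were the 10 regulators, up to 4 called genes of each list, Duxf3, Lin28a, the targeted genes and the 2 genes most like each regulator among genes of 5 CPM or more in a genotype (prior count 2); 1 gene that this rule named is not reported here. Values of Ubxn6 are given because its exons overlap Chaf1a. For seed matches, each gene's longest 3′ UTR was searched, and UTRs under 50 bases were left out.

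Alternatives were DESeq2 size factors, DESeq2 1.42.0, no filter on low counts, a fit of only the groups compared, a block for the replicate number, an offset for transcript GC content (a spline with 5 degrees of freedom; 73 genes had no GC value) and each library left out in turn. Figures and summaries used Python 3.11.15.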

Additional observations from a re-analysis of the deposited data

Results flagged for a closer look

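The effects of 2 mutants against the same WT libraries differed by a test of the difference itself for 5 values of 4 regulators, all of which involve Dgcr8_KO cells. Ehmt2 differed between Ago1_2_KO and Dgcr8_KO cells by a log2 fold change of 1.37 and between Drosha_KO and Dgcr8_KO cells by 1.24. Dppa2 differed between Ago1_2_KO and Dgcr8_KO cells by 1.06. Pcgf6 differed between Ago1_2_KO and Dgcr8_KO cells by -0.70, and Dppa4 between Drosha_KO and Dgcr8_KO cells by -0.74.

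Log2 fold changes over all genes went with transcript GC content in these comparisons, with a Spearman rho of 0.37 for Ago1_2_KO and 0.43 for Drosha_KO against Dgcr8_KO cells, and with the offset for GC the 5 values were 0.77, 0.60, 1.37, -0.44 and -0.62, in the order above. Within a genotype, library 1 minus library 2 gave a rho of -0.15 in Dgcr8_KO, -0.21 in Drosha_KO, -0.38 in Ago1_2_KO and -0.32 in WT cells. The part of GC content in the 5 values was not tested beyond this offset. Groups held 2 libraries each, too few for a search for single libraries that stand apart.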

How the results depend on the processing

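With 2 libraries a genotype, counts of calls moved widely. Of the 10 regulators, the call of Dppa2 in Ago1_2_KO against WT cells and that of Ehmt2 in Ago1_2_KO against Dgcr8_KO cells held under every alternative run. The number called in Dgcr8_KO against WT cells (0) was 2 with DESeq2, 2 with no filter on low counts and 2 with the replicate block. In Drosha_KO against WT (2) it was 1 with only the groups compared, in Ago1_2_KO against WT (2) it was 4 with the replicate block, and for any difference among the 4 genotypes (2) it was 4 with the block. In Drosha_KO against Dgcr8_KO (2) it was 1 with DESeq2 size factors and 0 with the GC offset, and in Ago1_2_KO against Dgcr8_KO (3) it was 5 with only the groups compared. Totals of all genes are not given here for the block in Ago1_2_KO against WT or for any difference. They are also not given for these alternatives in Drosha_KO against Dgcr8_KO. Those counts of regulators therefore stand without a share of all genes. With each library left out in turn, the number called ranged from 0 to 4 in Dgcr8_KO against WT, 0 to 4 in Drosha_KO against WT, 1 to 6 in Ago1_2_KO against WT, 0 to 3 in Drosha_KO against Dgcr8_KO, 1 to 4 in Ago1_2_KO against Dgcr8_KO, 0 to 0 in Ago1_2_KO against Drosha_KO and 2 to 7 for any difference; the highest values against WT came without WT 1. No value called in the edgeR fit reported first, or in an alternative, had opposite signs in those fits. Between alternatives signs did differ: in Dgcr8_KO against WT cells Ehmt2 and Trim28 were negative without WT 1 and positive with the GC offset. Leaving a library out leaves 1 genotype with a lone library, assumed to vary like the others.

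Over all genes, the calls in Dgcr8_KO against WT cells (1136) were 2335 with DESeq2, 3241 without the filter, 723 with only the groups compared, 2795 with the block and 752 with the GC offset. In Drosha_KO against WT (1862) they were 3413 without the filter, 589 with only the groups compared and 2884 with the block, and in Ago1_2_KO against WT (2887) 4431 without the filter. In Ago1_2_KO against Dgcr8_KO (2808) they were 7171 with only the groups compared, in Ago1_2_KO against Drosha_KO (120) 362 with DESeq2, 648 without the filter and 15 with only the groups compared, and for any difference (4069) 7135 without the filter. Leaving out libraries gave 40 to 4245, 714 to 4003 and 556 to 4955 in Dgcr8_KO, Drosha_KO and Ago1_2_KO against WT, 320 to 3900 in Drosha_KO against Dgcr8_KO (2525), 513 to 4239 in Ago1_2_KO against Dgcr8_KO, 6 to 176 in Ago1_2_KO against Drosha_KO and 1439 to 7101 for any difference, so the shares of all genes called move as widely. The cause was not tested.

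The labels number the libraries 1 and 2 in each genotype. Deviations of same-numbered libraries from their group means correlated at 0.0963 to 0.245 over all genes, and with 2 pairs a comparison the numbers were not taken as a pairing. With the replicate block 8 single values of the regulators gained a call and 0 lost one.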
